A study of Sander lucioperca with 12 samples.

Results

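Keratins, claudins and their junction partners are the structural genes of epithelia, the cell sheets that line surfaces and cavities. The set described here held 38 of the 32963 named genes in the count table of pikeperch (Sander lucioperca) whole brain: 37 genes chosen by symbol (keratins, claudins, epcam, occludins, tight junction proteins and plakophilins) and LOC116042622, which the study named krt13. They comprised 22 claudins, 6 keratins, 6 other tight junction genes, 3 desmosome genes and epcam. E-cadherin (cdh1), desmoplakin (dsp, dspa, dspb) and perp were not analysed here. The question was whether krt13, which differed between feeding phenotypes, moved together with other epithelial genes across phenotypes and years.

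The libraries came from 12 wild young-of-the-year fish of Lipno Reservoir caught in August, 3 in each of 4 groups: piscivores of 2023, planktivores of 2023, piscivores of 2022 and planktivores of 2022. Each library held the polyA RNA of the whole brain of 1 fish, and the sex of fish this young could not be told on dissection. No fish carried a transgene or received a treatment. Piscivores were seined at night in the littoral and planktivores trawled at night in the open water, and piscivores were the larger fish, so phenotype cannot be told apart from habitat, gear and body size. Fish of both phenotypes were larger in 2022, and the libraries of each year were a batch of their own, so year cannot be told apart from size and batch.

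Keratins are intermediate filament proteins that assemble from a type I and a type II partner. Krt8 (type II) and krt18 (type I) form the pair of simple epithelia, and in fish both also occur in brain glia. Claudins and occludin are the membrane proteins of tight junctions, and tjp1 (ZO-1) and tjp3 are scaffolds beneath them. Claudins also serve outside epithelia. Claudin 5 seals the capillaries of the blood-brain barrier. Claudin 11 and claudin 19 occur in mammalian myelin, and cldnk is a claudin of myelinating glia in zebrafish. Epcam is an adhesion molecule of epithelial cells, and plakophilins (pkp) belong to desmosomes, the junctions that anchor keratin filaments.

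Libraries held 15327406 to 33858794 counts on named genes, and 3 counts, the floor used here, were worth 0.0803 to 0.196 CPM (counts per 1000000 counts, normalised by TMM) in a library. Summed neuronal markers lay between 4779 and 6577 CPM in the 12 libraries, as a brain label asks. The 7 of 14 epidermal markers with a row summed to 11.2 to 22.9 CPM and the 5 of 8 ionocyte markers to 2.41 to 4.42 CPM. These sums were small beside the neuronal sum, and the markers with no row could not be judged. Epidermal sums were 16.2 to 22.9 CPM in piscivores and 14.2 to 14.3 CPM in planktivores of 2022. In 2023 they were 17.0 to 21.0 CPM in piscivores and 11.2 to 20.3 CPM in planktivores. Pituitary hormone genes set 3 libraries of 2023 apart, with 2582 and 2348 CPM in piscivores 1 and 2 and 573 CPM in planktivore 4, against 0.393 to 26.2 CPM in the other 9 libraries. Values without these 3 libraries come from 1 fit to the other 9, in which piscivore 4 alone stands for the piscivores of 2023 and is assumed to vary like the other groups, and they are given for krt13, krt8, krt94, cldn11a, tjp1b, the genes that differed between years and the likeness to krt13. In whole tissue, fewer cells of a type and less RNA per cell cannot be told apart.

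Per unit length, the set was led by claudins that also serve outside epithelia. In TPM (transcript level scaled by gene length and depth, mean over 12 fish), cldnk had 847 and cldn19 had 530, and these 2 claudins held 36.6% and 22.9% of all TPM of the set. Among keratins, krt8 had 343 TPM, krt18a.1 had 165 and krt94 (type I) had 124, together 27.3% of the set's TPM. The endothelial cldn5a followed with 87.0 TPM, cldnd1b with 37.9, krt13 with 30.1, cldn12 with 28.4 and tjp1a with 24.8. Of the junction genes of classical epithelia, cldn7a had 10.02 TPM, epcam 7.84, pkp1b 1.27, tjp3 0.824 and oclna 0.760. In all, 21 members had a mean of at least 1 CPM and 17 were below it, 4 of which (cldn10b, cldn15a, cldn15la, cldnc) never exceeded 3 counts in a library. The filter on low counts left 26 members tested in at least 1 comparison and 12 in none.

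Krt13 lies on chromosome 4 at 13094627 to 13097040 of the SLUC_FBN_1.2 assembly, on the plus strand. Krt94 follows on the same strand at 13135080 to 13138423, and 38039 bases with 3 other annotated genes lie between them. Krt8 and krt18a.1 are neighbours on chromosome 12 on opposite strands, 41613 bases apart with 0 annotated genes between. The counts hold only reads that matched uniquely, so any stretch that related genes share may be undercounted. Whether krt13 and krt94, cldn5a and cldn5b, or tjp1a and tjp1b share such stretches was not examined.

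Krt13 stood apart between phenotypes in both years. It had 40.0, 38.6 and 31.0 CPM in piscivores of 2023, against 10.4, 12.3 and 5.35 CPM in planktivores of 2023. In 2022 it had 35.4, 34.1 and 40.4 CPM in piscivores, against 9.08, 11.04 and 11.7 CPM in planktivores. The lowest of the 6 piscivores thus exceeded the highest of the 6 planktivores by a wide margin, and the group means of piscivores were 36.6 ± 4.84 CPM in 2023 and 36.6 ± 3.31 CPM in 2022 (SD, n = 3 each).

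**Figure D1:**
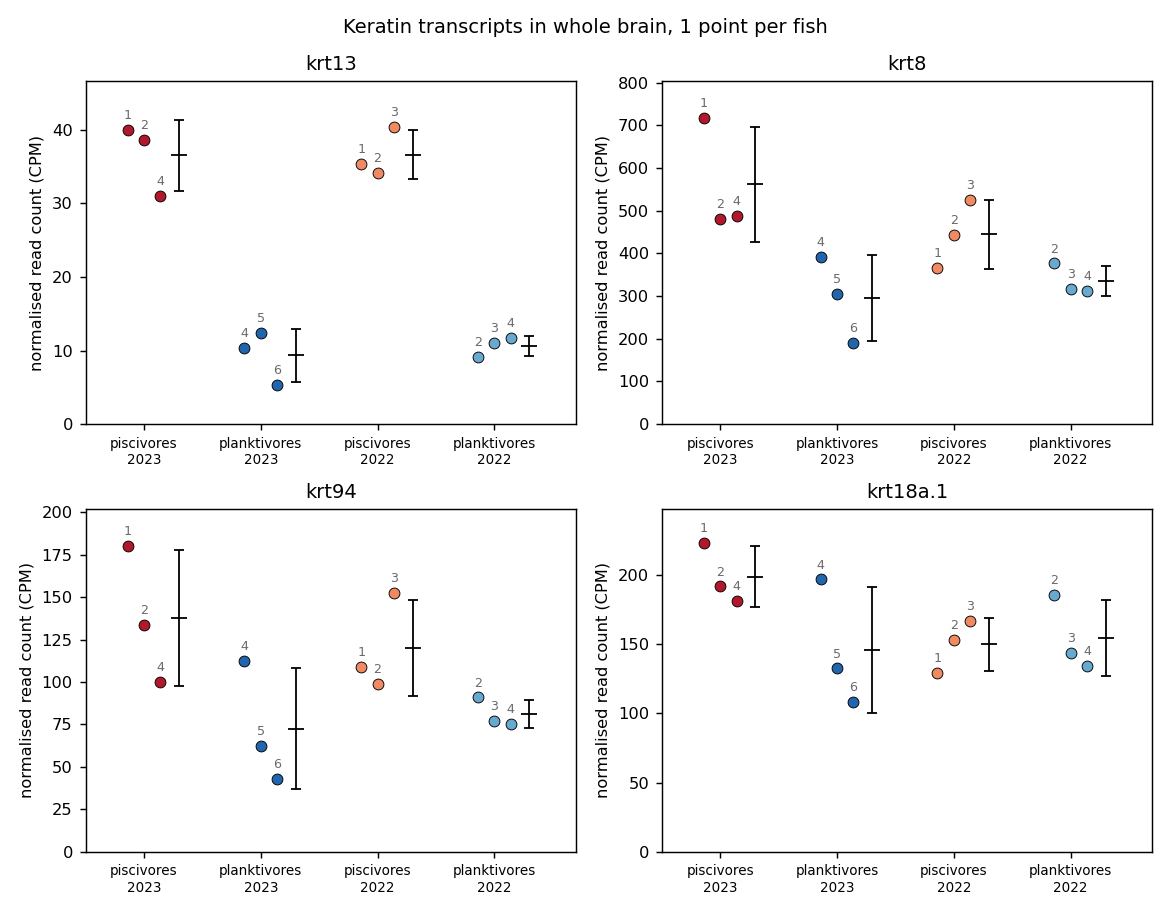
Normalised read counts (CPM, linear axis from 0) of krt13, krt8, krt94 and krt18a.1 in each of 12 fish, by group; numbers name the fish, and bars give the mean and SD of 3 fish. All 6 piscivores lie between 31.0 and 40.4 CPM for krt13 and all 6 planktivores between 5.35 and 12.3 CPM, whereas the ranges of krt8, krt94 and krt18a.1 overlap when both years are pooled.

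The log2 fold change of krt13, piscivores over planktivores, was 1.80 (SE 0.15) in 2022, with an adjusted p of 0.0129 in edgeR's quasi-likelihood test (Benjamini-Hochberg over 20624 genes). In 2023 it was 1.99 (SE 0.29) with an adjusted p of 0.0737 in edgeR over 21386 genes, short of the threshold of 0.05, and 1.58e-08 in DESeq2's Wald test. With 1 fit to all 12 libraries the adjusted p of 2023 was 0.0255 in edgeR, and without the 3 libraries that held pituitary hormones the log2 fold change was 1.80 (SE 0.38) with an edgeR adjusted p of 0.484. The 2022 call was lost when any of its 6 libraries was left out (edgeR adjusted p 0.0524 to 0.136, fold change 1.69 to 1.87). Over both years with year as a term, the log2 fold change was 1.88 (SE 0.17) with an edgeR adjusted p of 0.00167, and it stayed called without any 1 library (5.77e-05 to 0.0135) and without the 3 libraries that held pituitary hormones (1.80, adjusted p 0.0362). The study named krt13 for its difference between phenotypes in these fish, so these calls are not independent evidence of it. The phenotype difference itself differed by 0.18 (SE 0.34, 2023 minus 2022, edgeR adjusted p 0.964) between years, and by -0.12 (SE 0.22) without planktivore 6 of 2023.

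No other member was called between phenotypes. In 2023, 0 of 25 tested members passed an adjusted p of 0.05 with a log2 fold change beyond 1 in edgeR, when 0.168% of all tested genes did, and 6 had an unadjusted p under 0.05, when 13.7% of all genes did. DESeq2 called 1 member, krt13, with 1.81% of all genes called. In 2022, 1 of 22 was called (krt13) in edgeR, beside 0.0533% of all genes, and in DESeq2, beside 0.698%, with 2 members (krt13, krt94) at an unadjusted p under 0.05, beside 7.25%. Over both years 1 of 26 was called (krt13), beside 0.298%. The median log2 fold change of the members other than krt13 was 0.08 in 2023 and 0.02 in 2022, beside -0.00 for all tested genes in each year. The calls of each family therefore rest on krt13 alone, and the values below describe the rest.

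Among the keratins, all 6 had a fitted fold change above 0 in 2023 (median log2 0.71), when 49.8% of all genes had one, and 3 of the 5 tested had one in 2022 (median 0.42), when 49.4% did. These counts and medians include krt13, which the study named for this very difference, so they are not independent evidence. In 2023, krt222 (0.01) and krt1-c5 (0.05, SE 1.09) lay near 0. Krt8 had 718, 482 and 488 CPM in piscivores of 2023, against 392, 305 and 191 CPM in planktivores of 2023. In 2022 krt8 had 365, 444 and 526 CPM in piscivores, against 376, 317 and 312 CPM in planktivores. The groups did not overlap in 2023 and did in 2022, where planktivore 2 exceeded piscivore 1. The log2 fold change of krt8 was 0.95 (SE 0.28, edgeR adjusted p 0.217) in 2023 and 0.42 (SE 0.19, edgeR adjusted p 0.692) in 2022. DESeq2 gave krt8 an adjusted p of 0.024 in 2023, with a log2 fold change of 0.94 that missed the fold threshold, and 0.54 in 2022.

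Krt94, the type I keratin beside krt13, had 180, 134 and 100 CPM in piscivores of 2023, against 112, 62.4 and 43.1 CPM in planktivores of 2023. In 2022 it had 109, 99.1 and 152 CPM in piscivores, against 90.9, 77.2 and 75.5 CPM in planktivores. Here the groups stood apart in 2022 and overlapped in 2023, through planktivore 4. The log2 fold change was 0.95 (SE 0.37, edgeR adjusted p 0.327) in 2023 and 0.58 (SE 0.19, edgeR adjusted p 0.542) in 2022. Over both years krt94 reached 0.75 (SE 0.22) and krt8 0.67 (SE 0.19), with edgeR adjusted p of 0.141 and 0.115 and DESeq2 adjusted p of 0.0243 and 0.0147, both under the fold threshold. Without the 3 libraries with pituitary hormones, the 2023 fold change was 0.91 (SE 0.30) for krt94 and 0.97 (SE 0.31) for krt8 on the log2 scale, each with an edgeR adjusted p of 0.692.

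Krt18a.1, the type I partner of krt8, had 224, 192 and 182 CPM in piscivores of 2023, against 197, 132 and 109 CPM in planktivores of 2023. In 2022 it had 130, 153 and 167 CPM in piscivores, against 186, 144 and 134 CPM in planktivores. Both pairs of groups overlapped, with a log2 fold change of 0.47 (SE 0.22) in 2023 and -0.03 (SE 0.18) in 2022. Krt222, a keratin-like gene, ranged from 17.5 to 27.6 CPM in the 6 fish of 2023 and from 19.2 to 42.6 CPM in those of 2022, with fold changes of 0.01 and -0.11 on the log2 scale.

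The balance of the krt8 and krt18a.1 pair is given as a description with no p-value, since it was looked at after the values of both genes were seen. The ratio of krt8 to krt18a.1 TPM within a fish was 2.64, 2.06 and 2.21 in piscivores of 2023, against 1.64, 1.89 and 1.45 in planktivores of 2023. In 2022 it was 2.32, 2.38 and 2.59 in piscivores, against 1.67, 1.81 and 1.92 in planktivores. All 6 piscivores lay above all 6 planktivores, with a mean log2 difference of 0.46 (SE 0.09), 0.48 in 2023 and 0.44 in 2022. The ratios of krt94 to krt8 and of cldnk to cldn19 overlapped between phenotypes. The ratio of krt13 to krt8 was 0.0856 to 0.149 in piscivores and 0.0371 to 0.0623 in planktivores.

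**Figure D2:**
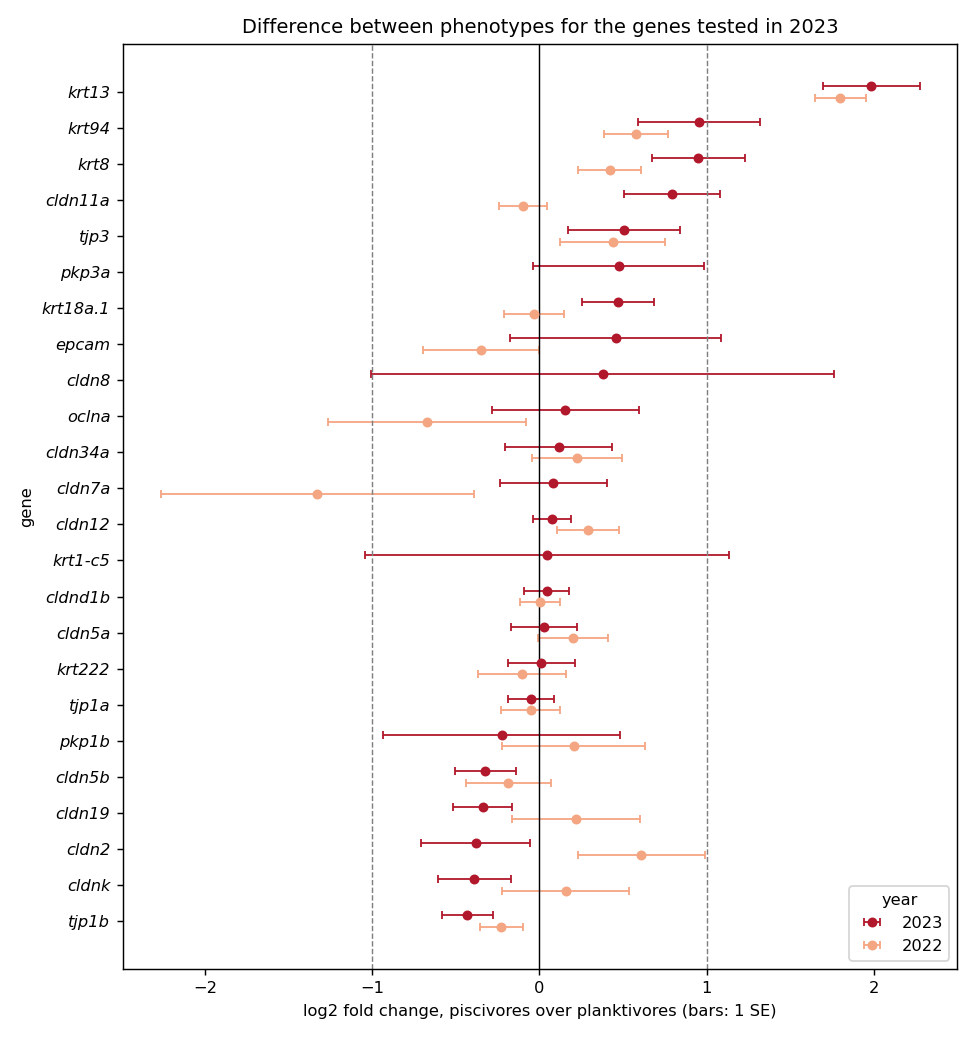
Log2 fold change of piscivores over planktivores with its SE for 24 of the 25 members tested in 2023 (dark points) and, where tested, in 2022 (light points); dashed lines mark the threshold of 1. Krt13 is the only gene with both points beyond 1, at 1.99 and 1.80, and krt94 and krt8 follow it in 2023 at 0.95 each.

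Leaving aside those with a locus number alone, which are described at the end, claudins had a median fold change near 0 between phenotypes. Of 11 tested in 2023, 7 had a fold change above 0 and the median was 0.04 on the log2 scale, and of 10 tested in 2022 the same number had one, with a median of 0.18. Cldn11a had 41.2, 26.9 and 30.1 CPM in piscivores of 2023, against 27.4, 17.9 and 12.4 CPM in planktivores of 2023. In 2022 cldn11a had 17.4, 15.3 and 20.1 CPM in piscivores, against 18.5, 18.8 and 19.6 CPM in planktivores. Its log2 fold change was 0.79 (SE 0.29, edgeR adjusted p 0.299) in 2023, or 0.98 (SE 0.24, edgeR adjusted p 0.532) without the libraries with pituitary hormones, and -0.10 (SE 0.15) in 2022, and the difference of 0.88 between years (SE 0.35) was the only one among 26 members with an unadjusted p under 0.05 (edgeR adjusted p 0.728), when 6.4% of all genes had one. No member was called for a difference between years in the phenotype effect (0 of 26), beside 0.0138% of all genes, and DESeq2 called none of them either, beside 0.404%.

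For cldnk and cldn19, the most abundant claudins, the phenotypes overlapped in each year. Cldnk had 461, 752 and 557 CPM in piscivores of 2023, against 935, 783 and 634 CPM in planktivores of 2023. In 2022 it had 474, 1425 and 722 CPM in piscivores, against 939, 668 and 760 CPM in planktivores. Piscivore 2 of 2022 was highest for cldnk and for cldn19 (1377 CPM), and the same fish held the highest sum of 8 myelin genes, 25730 CPM against 7691 to 14800 CPM in the other 11. Any link between these claudins and the myelin genes was not tested. Cldn5a ran from 56.6 to 112 CPM and cldn5b from 3.88 to 8.56 CPM over the 12 fish. Cldn7a varied widely within groups, with 3.29, 13.1 and 28.7 CPM in planktivores of 2022 and 3.08, 12.0 and 2.78 CPM in piscivores of 2022.

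Of the tight junction scaffolds, tjp1b was lower in every piscivore than in every planktivore of its year without passing the test. It had 44.1, 47.1 and 59.7 CPM in piscivores of 2023, against 62.0, 73.2 and 71.1 CPM in planktivores of 2023. In 2022 it had 73.0, 67.5 and 62.5 CPM in piscivores, against 79.8, 76.4 and 83.5 CPM in planktivores. The log2 fold change was -0.43 (SE 0.15, edgeR adjusted p 0.285) in 2023, -0.23 (SE 0.13, edgeR adjusted p 0.761) in 2022 and -0.35 (SE 0.09, edgeR adjusted p 0.106, DESeq2 0.019) over both years, and without the libraries with pituitary hormones it was -0.28 (SE 0.16, edgeR adjusted p 0.981) in 2023. Its paralog tjp1a had -0.05 in both years. In 2023 the groups of 5 of 25 members did not overlap (krt13 and krt8 among the 3 higher in piscivores, tjp1b and cldn5b lower), beside 20.3% of all genes. In 2022 those of 3 of 22 did not (krt13 and krt94 higher, tjp1b lower), beside 13.7%. With 3 fish against 3, an exact permutation test could not go below 0.1.

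**Figure D3:**
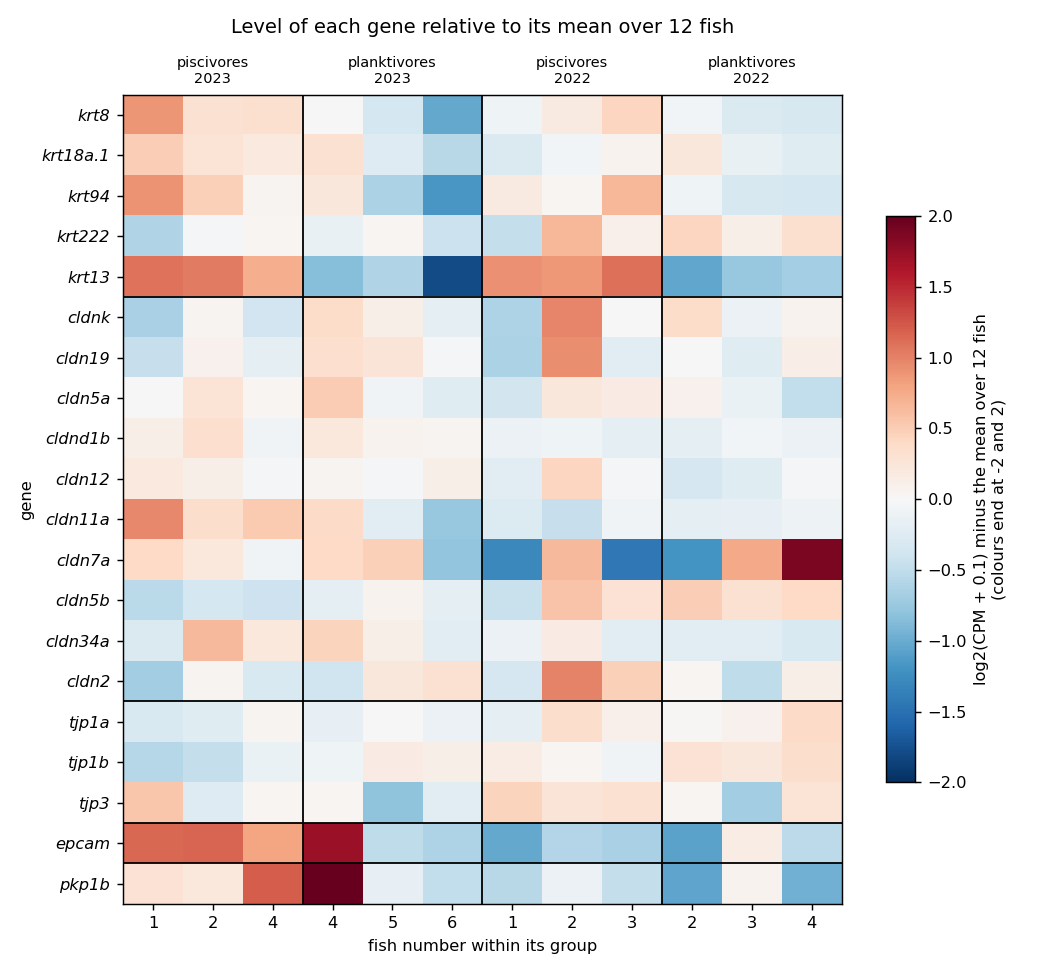
Level of 20 of the 21 members with a mean of at least 1 CPM in each of 12 fish, as log2(CPM + 0.1) minus the gene's mean over the fish (red above, blue below, colours ending at -2 and 2); rows are grouped by family and columns by group. Krt13 is red in all 6 piscivores and blue in all 6 planktivores, and no other row is split in that way.

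Likeness to krt13 was measured with log2 CPM (prior count 2) over the 20 other members with a mean of at least 1 CPM. Krt13 forms separate clusters by phenotype. Any correlation over fish of both phenotypes includes that gap, whether over all 12, within a year or over 9 libraries. Such values serve here only to describe and rank genes. The 5 members most alike were krt8 (Pearson's r 0.83), krt94 (0.81), tjp3 (0.51), cldn11a (0.48) and krt18a.1 (0.46), and tjp1b was at the other end (-0.62). The median over the 20 members was 0.16, beside -0.02 over 19146 genes, and 3 of the 20 exceeded 0.5, when 10% of all genes did. Among all 19146 genes krt8 had rank 203 and krt94 rank 251. Within each year the r of krt8 was 0.92 in 2023 and 0.74 in 2022 and that of krt94 0.85 and 0.80, whereas cldn11a (0.84 and -0.37) and krt18a.1 (0.79 and -0.17) had values of opposite sign in the 2 years. An r above 0.5 was held by 21.7% of all genes within 2023 and by 18.6% within 2022. Over the 9 libraries without pituitary hormones krt8 had r = 0.86 and krt94 r = 0.86, the median over the 20 members was 0.19, and 3 of the 20 exceeded 0.5, when 14% of all genes did.

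Within a phenotype, where the gap plays no part, no correlation of a member with krt13 passed the adjustment over the 20 members. Each set of 6 fish pooled both years, so a shift between years enters r, and the permutations did not keep the years apart. Over the 6 piscivores krt94 had r = 0.90 (exact permutation p = 0.0222, adjusted p 0.444) and Spearman's rho 0.89 (exact permutation p = 0.0333, adjusted p 0.667). Without the 2 fish farthest from the median of krt13, its r was 0.96. With so few fish left, r also rose to 0.98 for cldn11a and 0.92 for epcam and fell to -0.95 for tjp1b. The trimmed value thus does not set krt94 apart. Krt8 had r = 0.50 (exact permutation p = 0.299) and rho 0.54 in piscivores. Over the 6 planktivores krt8 had r = 0.74 (exact permutation p = 0.158) but rho -0.09, and r turned to -0.87 without the 2 farthest fish, so the relation rests on them. In planktivores krt94 had r = 0.60 (exact permutation p = 0.239), which turned to -0.94 in the same way. The smallest adjusted p of the 40 tests of r was 0.444 in piscivores and 0.788 in planktivores. Epcam, the general epithelial marker of the set, had r = 0.10 over the 6 piscivores and 0.23 over the 6 planktivores. In planktivores its r turned to -0.91 without the 2 farthest fish. With the mean of each group removed, r over all fish was 0.66 for krt8, 0.66 for cldn11a, 0.61 for krt94 and 0.41 for epcam. At the other end, tjp1b had -0.33. The median over the 20 members was then 0.21, and 3 exceeded 0.5, when 5.11% of all genes did. These centred values were not tested. They include planktivore 6 of 2023, the lowest of all fish for krt13, krt8, krt94 and cldn11a, and their dependence on that fish was not examined.

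**Figure D4:**
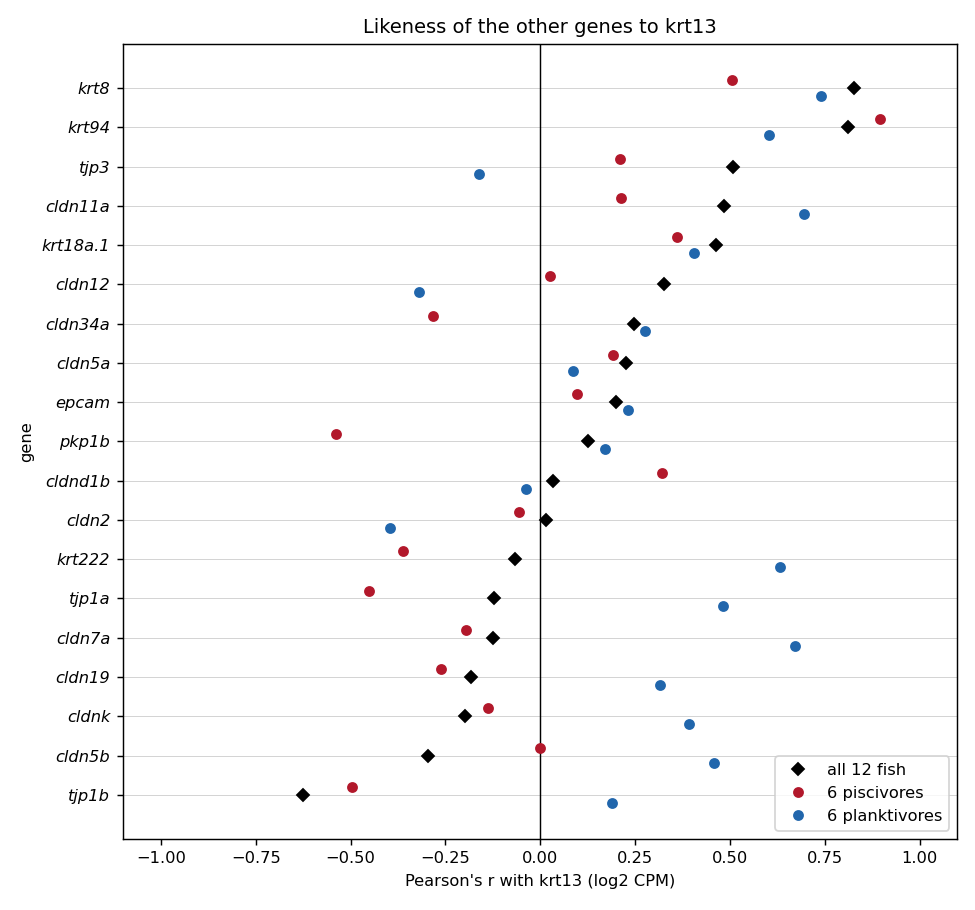
Pearson's r of 19 of the 20 members with krt13, from log2 CPM over all 12 fish (black diamonds), the 6 piscivores (red) and the 6 planktivores (blue). Krt8 and krt94 lead over 12 fish at 0.83 and 0.81, and the points of most other genes scatter on both sides of 0.

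Outside the set, the 5 genes of the whole table most alike to krt13 over 12 fish were ldlrad2 (r 0.97), svild (0.97), si:ch211-166a6.5 (0.96), rrbp1b (0.96) and nid2a (0.96). Nid2a encodes nidogen 2, a basement membrane protein, and had 8.71 to 10.5 CPM in piscivores and 2.77 to 5.71 CPM in planktivores of 2023, and 7.78 to 9.93 CPM in piscivores and 3.62 to 5.33 CPM in planktivores of 2022. Summed markers of the meninges were also higher in every piscivore than in every planktivore of its year. This list holds osr1, tbx18 and slc13a4, which the study reported as higher in piscivores of these fish, so its separation is not independent evidence. The 10 meningeal markers with a row summed to 376 to 845 CPM in piscivores and 142 to 285 CPM in planktivores of 2023, and to 346 to 548 CPM in piscivores and 196 to 293 CPM in planktivores of 2022. All 10 had a fold change above 0 in each year, 9 with an unadjusted p under 0.05 in each, and 9 stood apart in 2023 and 8 in 2022. Over all tested genes, 49.8% had a fold change above 0 in 2023 and 49.4% in 2022. An unadjusted p under 0.05 was held by 13.7% and 7.25% of them, and 20.3% and 13.7% stood apart. Of 8 tested markers of ependyma and choroid plexus, 7 had a fold change above 0 in each year (median log2 0.41 in 2023 and 0.46 in 2022), and 4 had an unadjusted p under 0.05 in 2023 and 2 in 2022. Of 6 astroglial markers, 5 had a fold change above 0 in 2023 and 6 in 2022, with medians of 0.25 and 0.42. Among epidermal markers, 4 of 5 tested had a fold change above 0 in 2023 (median log2 0.21) and 4 of 4 in 2022 (median 0.42). An unadjusted p under 0.05 was held by 1 of them in 2023 and 0 in 2022. All 6 tested muscle markers had a fold change below 0 in each year, with medians of -2.41 and -2.30. Ckmb in 2023 (-0.01, SE 0.85) and acta1a in 2022 (-0.01, SE 0.44) lay near 0. In 2023 the muscle sums overlapped, at 3.96 to 11.95 CPM in piscivores and 54.3, 9.85 and 6.24 CPM in planktivores. In 2022 they stood apart, at 6.04 to 12.4 CPM and 42.65 to 55.9 CPM. In 2022 edgeR called ckma (log2 fold change -3.51, SE 0.29) and ckmb (-3.76, SE 0.33) with an adjusted p of 0.0129 each, when 0.0533% of all genes were called. The part of these lists in the krt13 difference was not tested.

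A wider list of epithelial genes (transcription factors, proteases and polarity and junction genes, 36 of 51 with a row) gave 0 calls between phenotypes in either year in edgeR, when 0.168% of all genes were called in 2023 and 0.0533% in 2022. It shares tp63, evpla, ppl and grhl3 with the epidermal markers above. These shared genes gave every fold change above 0 among the epidermal markers, so the lists are not independent. The wider list also holds macc1, which the study listed as higher in piscivores of these fish. Counts and medians that include macc1 are thus not independent evidence. In 2023, 25 of its 31 tested genes had a fold change above 0 (median log2 0.35), beside 49.8% of all genes, and 5 had an unadjusted p under 0.05, all higher in piscivores, beside 13.7% of all genes. In 2022 it was 18 of 28 (median 0.24), beside 49.4%, with 3 higher and 1 lower at an unadjusted p under 0.05, beside 7.25%. Ppl, which encodes the desmosomal protein periplakin, had a log2 fold change of 1.03 (SE 0.22, edgeR adjusted p 0.133) in 2023 and 0.32 (SE 0.22, edgeR adjusted p 0.816) in 2022, and prom2 had 0.59 (SE 0.25) in 2023 and 0.99 (SE 0.29) in 2022. Of the other genes of the list, some kept their sign between years and some did not. Dsc2l had 0.65 (SE 0.28) in 2023 and 0.67 (SE 0.18) in 2022. Llgl2 had 0.18 (SE 0.15) and 0.44 (SE 0.14), in the same order. Macc1 had 1.76 (SE 0.44) in 2023 and -0.06 (SE 0.83) in 2022. St14a had 1.16 (SE 0.34) and -0.46 (SE 0.48), and lsr 0.54 (SE 0.61) and -1.46 (SE 0.47), in the same order. The 2022 values of macc1 and st14a and the 2023 value of lsr lay within their SE of 0. A change of sign was thus not established for these genes.

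Between years, epcam was called and krt13 was not. The log2 change of krt13, 2023 over 2022, was -0.01 (SE 0.15, edgeR adjusted p 0.977) in piscivores and -0.18 (SE 0.29, edgeR adjusted p 0.781) in planktivores. Among piscivores, 1 of 24 tested members was called in edgeR, epcam, beside 0.356% of all genes, and 2 in DESeq2, epcam and krt1-c5, beside 1.77%. Epcam had 11.6, 11.8 and 9.04 CPM in piscivores of 2023, against 2.49, 3.41 and 3.26 CPM in piscivores of 2022. The 2 groups were far apart, with a log2 change of 1.81 (SE 0.21, edgeR adjusted p 0.0155). The call was lost with 1 fit to all 12 libraries (edgeR adjusted p 0.148), without piscivore 3 of 2022 (0.0785) and without piscivore 2 of 2023 (0.112). It was also lost with the replicate number as a block (log2 change 2.01, edgeR adjusted p 0.356), which kept only piscivores 1 and 2 of each year. Without the libraries that held pituitary hormones the log2 change was 1.55.

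In planktivores epcam had 17.4, 3.603 and 3.33 CPM in 2023, against 2.40, 5.74 and 3.58 CPM in 2022. Only planktivore 4 of 2023, 1 of the 3 fish with pituitary hormones, lay above the rest, and the log2 change was 1.04 (SE 0.67, edgeR adjusted p 0.435). Planktivore 4 also led its group in summed muscle markers (54.3 against 9.85 and 6.24 CPM) and epidermal markers (20.3 against 11.2 and 11.2 CPM). Its red blood cell markers summed to 498 CPM, against 197 and 313 CPM. Muscle sums were 42.65 to 55.9 CPM in planktivores of 2022. Piscivore 4 of 2023 had 9.04 CPM of epcam with 0.660 CPM of pituitary hormones, below the 3 fish with these hormones (11.6 to 17.4 CPM) and above the other 8 (2.40 to 5.74 CPM). The part of pituitary or other tissue in the change of epcam was not tested.

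Krt1-c5, a type I keratin, followed the same fish. It had 28, 16 and 30 counts in piscivores of 2023, against 2, 1 and 0 counts in piscivores of 2022. In planktivores it had 59, 6 and 2 counts in 2023, against 2, 2 and 0 counts in 2022. The change in piscivores had an adjusted p of 0.0774 in edgeR and 0.0169 in DESeq2, and the 74 counts of 2023 against the 3 of 2022 gave a depth-scaled ratio of 14.6 (95% exact Clopper-Pearson interval 4.82 to 72.6, counting error only). Without the libraries with pituitary hormones its log2 change was 3.76 (SE 1.103, edgeR adjusted p 0.653). Cldn8, a claudin of tight epithelia in mammals, had 50, 15 and 7 counts in piscivores of 2023, against 4, 1 and 1 counts in piscivores of 2022. In planktivores cldn8 had 47, 0 and 3 counts in 2023, against 4, 0 and 0 counts in 2022, so its 3 highest libraries were the 3 with pituitary hormones.

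Oclna, an occludin, had 2.09, 1.21 and 0.775 CPM in piscivores of 2023, against 0.262, 0.560 and 0.263 CPM in piscivores of 2022. In planktivores it had 1.78, 0.963 and 1.02 CPM in 2023, against 0.517, 0.946 and 0.287 CPM in 2022. Both pairs stood apart, with log2 changes of 1.90 (SE 0.53, edgeR adjusted p 0.171) in piscivores and 1.09 (SE 0.49, edgeR adjusted p 0.271) in planktivores. Pkp1b, a plakophilin, had 1.95, 1.84 and 3.79 CPM in piscivores of 2023, against 1.05, 1.46 and 1.103 CPM in piscivores of 2022 (log2 change 1.07, SE 0.37, edgeR adjusted p 0.217), and planktivore 4 of 2023 was again highest with 6.75 CPM. Without the libraries with pituitary hormones the log2 change in piscivores was 1.07 (SE 0.69, edgeR adjusted p 0.976) for oclna and 1.64 (SE 0.48, edgeR adjusted p 0.659) for pkp1b.

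**Figure D5:**
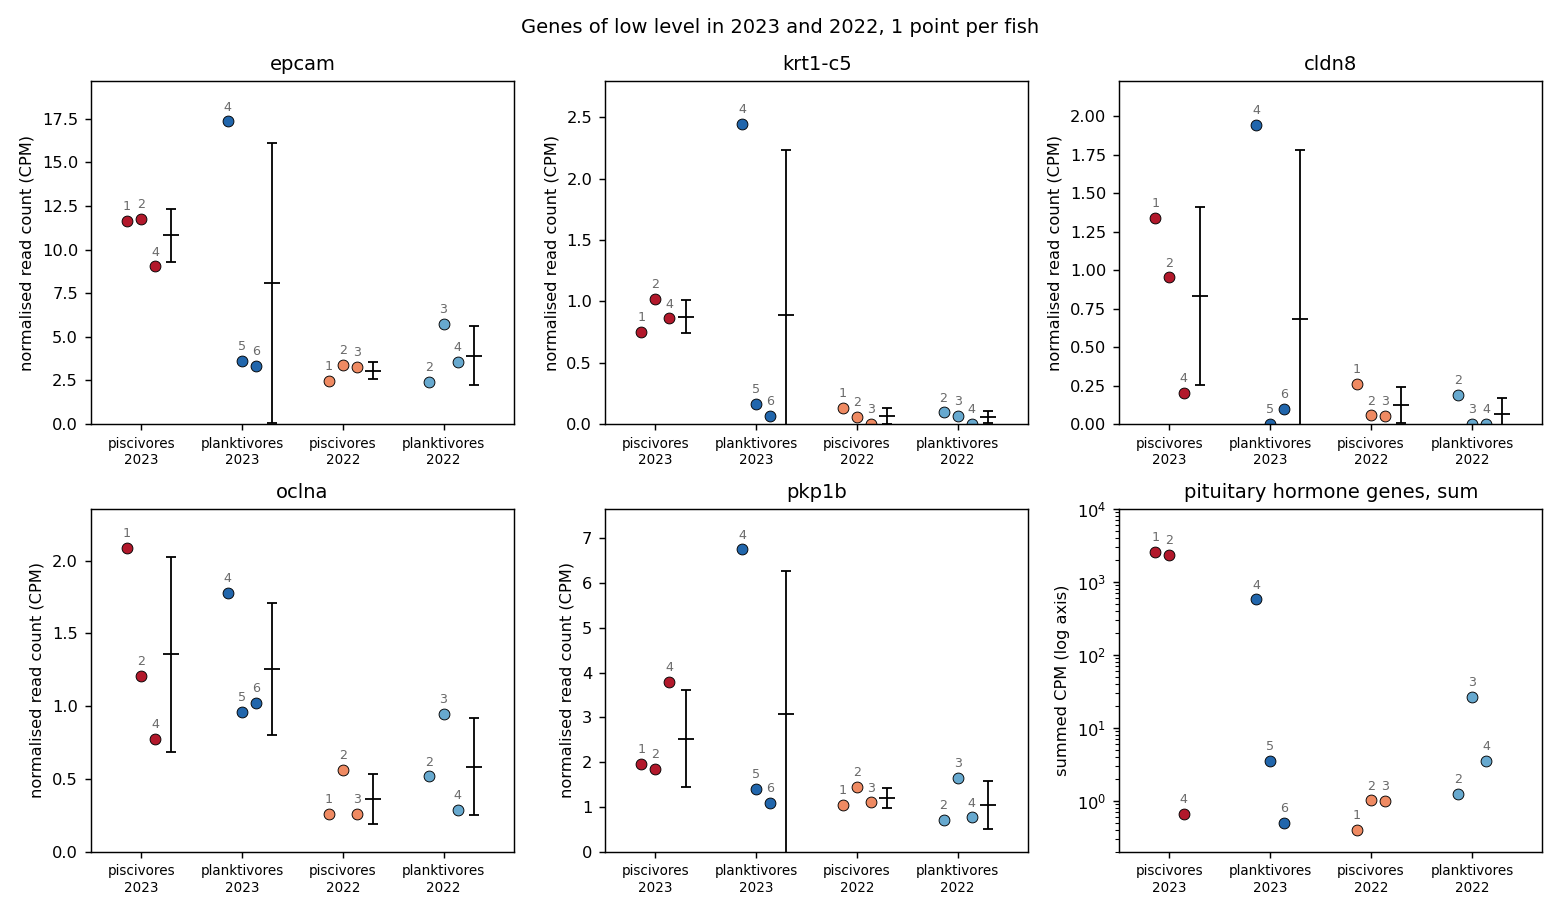
Normalised read counts (CPM, linear axes from 0) of epcam, krt1-c5, cldn8, oclna and pkp1b in each of 12 fish, and the summed CPM of pituitary hormone genes on a log axis; numbers name the fish, and bars give the mean and SD of 3 fish (none on the log axis). Planktivore 4 of 2023 is highest for epcam, at 17.4 CPM, and for krt1-c5, cldn8 and pkp1b, and piscivore 4 of 2023 has 9.04 CPM of epcam without pituitary hormones.

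In all, 8 members had an unadjusted p under 0.05 between years in piscivores, when 17.3% of all genes did. The 6 higher in 2023 were epcam, krt1-c5, oclna, pkp1b, cldn11a (log2 change 0.89, SE 0.20) and krt18a.1 (0.40, SE 0.15), and the 2 lower were tjp1b (-0.44, SE 0.15) and cldn5b (-0.66, SE 0.27). Cldn11a had an adjusted p of 0.12 in edgeR and 0.007 in DESeq2, under the fold threshold in both. The groups of 9 members did not overlap, 7 of them higher and 2 lower in 2023, beside 24.5% of all genes. Among planktivores 0 of 22 were called in edgeR, beside 0.971% of all genes, and DESeq2 called none, beside 2.72%. The 3 with an unadjusted p under 0.05 there, when 20% of all genes had one, were all lower in 2023, among them cldn5b (-0.51, SE 0.16, edgeR adjusted p 0.152) and krt222 (-0.46, SE 0.16, edgeR adjusted p 0.169). In planktivores the groups of 7 members did not overlap, 2 higher and 5 lower in 2023, beside 27.6% of all genes. The year and phenotype comparisons share fish, so their counts are not independent of each other.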

How the data were processed

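Whole-brain polyA RNA of 12 fish was sequenced, 1 library per fish and 3 per group. The deposited counts were made by the authors with Trimmomatic, STAR and featureCounts on the SLUC_FBN_1.2 assembly, counting reads that mapped uniquely within exons, with no normalization. The deposited TPM values, also from the authors, correct the same counts for exonic length and depth, and every library sums to the same total. STAR 2.5.2 is the version the submitters' processing notes give. Libraries held 15327406 to 33858794 counts on named genes, and 24 lines that name no gene (0.589% to 3.18% of counts) were left out.

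Groups followed the sample labels. Genes were tested with edgeR 4.0.16 in R 4.3.3 (filterByExpr, TMM, robust quasi-likelihood F test, Benjamini-Hochberg over all genes tested) and called at an adjusted p below 0.05 with an absolute log2 fold change above 1. Phenotype and year comparisons used the 2 groups concerned, and 2 fits to all 12 libraries gave phenotype with year as a term and the interaction of both. The SE of a fold change is its size divided by the square root of F. P-values measure the spread between fish of 1 catch. CPM are TMM-scaled counts. Correlations used log2 CPM with a prior count of 2 over members with a mean of at least 1 CPM, with exact permutation tests within a phenotype. The scripts were tested on simulated counts.

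Alternatives were DESeq2 1.42.0, its size factors, looser and stricter filters, adjusted p alone, leaving out the 20 most counted genes, 1 fit to all libraries, a replicate block, each library left out in turn and, chosen after seeing the data, leaving out libraries with over 100 CPM of pituitary hormones and removing group means before correlating. Members and marker lists were chosen with earlier results of these data known. Named genes were krt13, the members called by either tool, up to 5 members in each direction with an unadjusted p under 0.05 and groups apart, the 3 most abundant of each family by TPM, and the 5 members and 5 genes most alike to krt13; others that are named were chosen after their values were seen. Genes with only a locus number entered the set as krt13 alone, since the reference table used here gives names and no descriptions. The values of 1 member of the set are not reported here by name, though it stays in the counts and medians.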

Additional observations from a re-analysis of the deposited data

How the results depend on the processing

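Among the values with alternatives, 90 of 98 that answer a comparison (counts of calls, medians, fold changes of krt13 and its likeness to members) and 80 of 84 fold changes of other genes kept their direction and their side of the threshold under another tool, scaling, filter or fit. The count of members called between phenotypes in 2023 was 0 and became 1 (krt13) with DESeq2 and with 1 fit to all 12 libraries, where the krt13 log2 fold change was 1.98 and 1.96. Between years in piscivores the count was 1 and became 2 with DESeq2 (epcam and krt1-c5) and 0 with 1 fit to all 12 libraries, 0 with the replicate number as a block and 0 without the libraries with pituitary hormones. With each library left out in turn, the count in 2022 was 0 each time, with krt13 at 1.69 to 1.87, and the count between years in piscivores was 0 to 1. The year difference of krt13 ran between -0.12 and 0.42 and turned negative without planktivore 6 of 2023. The median log2 fold change of the members other than krt13 ran between -0.057 and 0.29 in 2023, where 0.29 came without planktivore 4, between -0.031 and 0.20 in 2022, where 0.20 came without piscivore 1, and between -0.20 and 0.26 for the year difference, where 0.26 came without planktivore 4 of 2023. The median correlation of members with krt13 ran between 0.075 and 0.36 over the libraries left out. The cause of these changes was not tested, except that leaving out a library leaves fewer fish to estimate the spread.

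Replicate numbers name different fish in each group. In 2022 both phenotypes hold numbers 2 and 3, and the deviations of same-numbered fish from their group means correlated at -0.0492 and 0.0208. With the replicate number as a block over those 4 libraries the count of members called was 1 and krt13 had 1.90 (edgeR adjusted p 0.0477). For piscivores between years the correlations were -0.0529 and 0.137 over numbers 1 and 2. No other pair of groups that was compared shares 2 numbers. With 3 fish a group, some genes had wide errors. Cldn8 in 2023 had a SE of 1.39 on the log2 scale, with 47, 0 and 3 counts in planktivores. Cldn7a, at a mean of 9.55 CPM over 12 fish, had a SE of 0.94 in 2022.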

Other observations

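Outside the 38 genes, 4 claudins stood in the table with a locus number alone. Their names come from the study's own lists of changed genes, so their values are a description with no test. LOC116059012 (cldn24) had 4.66, 0.953 and 2.38 CPM in piscivores of 2023, against 0.331, 0.110 and 0.0990 CPM in planktivores of 2023. In 2022 it had 4.98, 0 and 0 CPM in piscivores, against 0.0471, 1.25 and 0.0319 CPM in planktivores, so that the groups stood apart in 2023 and 1 fish led each group in 2022. LOC116037061 (cldn4) had 2.70, 2.99 and 1.55 CPM in piscivores and 1.57, 1.27 and 0.594 CPM in planktivores of 2023, and 0.197 to 1.050 CPM in the 6 fish of 2022. LOC116064942 (cldn7b) had its highest level in planktivore 4 of 2023, 6.05 CPM, the fish that also led for epcam, krt1-c5, cldn8 and pkp1b, and its next highest in piscivores 2 and 1 of 2023, 3.56 and 2.92 CPM. LOC116042828, which the study calls cldn35 in one list and cldnb in another, had 0.321, 3.30 and 3.99 CPM in piscivores and 3.60, 0.385 and 3.04 CPM in planktivores of 2023, and no more than 0.405 CPM in any fish of 2022.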
